A study of Mus musculus with 19 samples.

Results

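The proteasome genes were followed through 6 groups of sorted mouse B-lineage cells. The members were the protein-coding genes with a symbol of the form Psma, Psmb, Psmc, Psmd or Psme plus a number that were listed in all 4 expression tables of the study, which gave 41 of the 15235 genes listed in all 4. They comprise 7 alpha-ring genes (Psma), 10 beta-ring genes (Psmb), 6 ATPases (Psmc), 14 non-ATPase regulatory genes (Psmd) and 4 activators (Psme). Psma8 had the same form of name and was left out because it was not listed in all 4 tables.

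The proteasome is the protease that degrades ubiquitin-tagged proteins. Its barrel-shaped core has outer alpha rings, which gate the entrance, and inner beta rings, which hold the catalytic sites. In most tissues the catalytic sites are formed by Psmb5, Psmb6 and Psmb7, with chymotrypsin-like, caspase-like and trypsin-like activity in that order. Psmb8, Psmb9 and Psmb10 take the places of Psmb5, Psmb6 and Psmb7 in the immunoproteasome, a form that is common in lymphocytes and induced by interferon gamma, and that favours peptides suited to MHC class I. A regulatory particle of ATPases and non-ATPase subunits binds ubiquitin chains, removes them and unfolds the substrate. Alternative caps are formed by Psme1 with Psme2, which interferon gamma also induces, by the nuclear activator Psme3 and by the large activator Psme4. Plasma cells are known for a high protein-folding load and for sensitivity to proteasome inhibitors.

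The study asked how Pik3cg, which encodes the catalytic subunit of the kinase PI3K gamma, bears on antibody responses. Mice were immunized in the peritoneum with sheep red blood cells (SRBC), and cells were sorted by flow cytometry at day 28. Bone marrow antibody-secreting cells (ASC, CD138+) labelled wild type had 3 libraries, and spleen ASC labelled wild type had 3. Spleen germinal centre (GC) B cells (CD95+/GL7+) had 4 libraries labelled Pik3cg knockout and 3 labelled wild type. Spleen naive B cells (CD3-/B220+/IgD+) had 3 labelled knockout and 3 labelled wild type. The labels say knockout without naming the cell type in which Pik3cg was deleted, and every group had been immunized. The design text names 4 knockout and 3 wild-type mice without tying libraries to mice, so p-values measure the spread between these libraries. The deposited values are CPM, read counts scaled to the same total in each library, and library depths, read from the step between low values, ranged from 10.2 to 21.6 M reads.

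Some labels did not match the data. The 9 columns of naive cells and ASC labelled wild type carry HET in their headers. Pik3cg itself was 6.55 to 66.0 CPM in the GC libraries labelled knockout, against 19.4 to 56.5 CPM in the wild-type-labelled ones, a log2 difference of -0.60 (95% interval -2.51 to 1.32, limma adjusted p = 0.70). It was 94.98 to 127 CPM in naive cells labelled knockout and 110 to 115 CPM in naive cells labelled wild type (log2 difference -0.08, limma adjusted p = 0.93), so transcript level did not separate the genotypes; no reads over a deleted exon could be examined. Of the 8 GC B-cell markers, Rgs13, Gcsam and S1pr2 were at 0 in all 3 GC libraries labelled wild type, while Rgs13 was 725 to 1294 CPM in the 4 labelled knockout. The summed GC markers were 2719 to 3526 CPM in the GC libraries labelled knockout, against 460 to 631 CPM in the wild-type-labelled ones. Summed markers of naive B cells were 373 to 714 CPM in the GC libraries labelled knockout, against 1720 to 2720 CPM in the wild-type-labelled ones, although 2 of those 6 markers were called higher and 1 lower. The 16 T-cell markers summed to 1307 to 2599 CPM in the GC libraries labelled knockout, against 76.8 to 134 CPM in the wild-type-labelled ones, where 9 of the 16, Cd3e and Cd4 among them, were at 0 throughout. The 12 monocyte and macrophage markers summed to 190 to 1552 CPM in the GC libraries labelled knockout and 169 to 395 CPM in the wild-type-labelled ones, where 7 were at 0 throughout, and the 6 erythroid markers to 29.7 to 2977 CPM and 0.051 to 2.41 CPM in that order, with 4 at 0. By limma, 7 of 8 GC, 14 of 15 T-cell, 4 of 11 monocyte and macrophage, 3 of 4 erythroid and 3 of 6 B-cell markers tested rose. In turn, 1 B-cell marker and 5 of 10 ASC markers fell, against 8.54% of all genes higher and 5.09% lower. In GC cells the ASC markers summed to 4121 to 12106 CPM with the knockout label and 7303 to 11616 CPM with the wild-type label, which overlap. The 6 B-cell markers summed to 6336 to 7066 CPM and 3948 to 4818 CPM in that order. The 10 ASC markers summed to 136476 to 159730 CPM in bone marrow ASC, 111952 to 116020 CPM in spleen ASC and 1187 to 1435 CPM in naive cells labelled wild type. Mitochondrial genes took 3.27 to 3.96% of CPM in the GC libraries labelled knockout, against 2.07 to 2.42% in the wild-type-labelled ones. In the GC comparison the genotype label, the cell makeup and whatever the header numbers reflect therefore cannot be told apart. In bulk samples fewer cells of a type and less RNA per cell cannot be told apart either.

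The makeup of the tables set how proteasome levels could be read. First, immunoglobulin genes with Jchain took 78.0 to 83.6% of all CPM in bone marrow ASC, 72.3 to 76.7% in spleen ASC, 2.63 to 8.31% in GC cells labelled knockout, 6.99 to 13.6% in GC cells labelled wild type, 3.72 to 3.89% in naive cells labelled knockout and 3.90 to 4.16% in naive cells labelled wild type. Levels were therefore also computed after removing those genes and rescaling the rest to the same total. Second, a search limited to pseudogenes and the gene Psme2b found copies of 19 members in the tables, 32 in all. Their identity was 81.4 to 100% over the aligned part, and they are called near-identical copies here. The copies held 50.6 to 53.0% of the summed member and copy CPM in bone marrow ASC, 51.8 to 53.5% in spleen ASC, 7.68 to 8.94% in GC cells labelled knockout, 10.5 to 11.2% in GC cells labelled wild type, 50.9 to 51.6% in naive cells labelled knockout and 49.1 to 50.7% in naive cells labelled wild type. The share in copies was thus several times lower in the GC table than in the naive and ASC tables. Levels of the GC table and the others are set side by side only as a description. They are read with copies added, a choice made after seeing the data, and some deposited values of all groups are printed as well. The 22 members for which the search found no copy are not affected by adding copies.

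The promoters of the 4 members whose genotype difference was not alike in GC and naive cells, Psmb8, Psmb10, Psme1 and Psmd4, are shown with that of Psmb5, the constitutive counterpart of Psmb8. Psmb8 (ENSMUSG00000024338) lies at chr17:34197721-34201454 on the plus strand of mm10, Psmb10 (ENSMUSG00000031897) at chr8:105935735-105938444 on the minus strand, Psme1 (ENSMUSG00000022216) at chr14:55578123-55581529 on the plus strand, Psmd4 (ENSMUSG00000005625) at chr3:95032694-95042614 on the minus strand and Psmb5 (ENSMUSG00000022193) at chr14:54614119-54618022 on the minus strand. The RefSeq windows (GRCm38.p6) run from 250 bases before to 50 bases after the RefSeq start and span chr17:34197945-34198244, chr8:105938343-105938642, chr14:55578244-55578543, chr3:95042565-95042864 and chr14:54617946-54618245 in that order. The gene positions above are from GENCODE, whose starts can differ. The windows of Psmb8 and Psme1 lie wholly inside the GENCODE genes, downstream of the GENCODE starts. Distances below are counted from the RefSeq start. Capitals mark a match, on either strand, to an interferon regulatory factor (IRF) motif (GAAA, then any 2 bases, then GAAA), a STAT motif (GAS, TTCNNNGAA) or an antioxidant response element (ARE, TGACNNNGC, the motif read by Nrf1 and Nrf2).
Psmb8: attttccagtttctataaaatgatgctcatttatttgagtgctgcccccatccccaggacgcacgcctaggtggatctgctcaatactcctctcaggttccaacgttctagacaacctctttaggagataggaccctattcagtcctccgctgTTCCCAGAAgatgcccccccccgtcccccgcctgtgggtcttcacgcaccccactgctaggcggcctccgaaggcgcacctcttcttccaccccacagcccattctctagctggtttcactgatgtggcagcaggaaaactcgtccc
Psmb10: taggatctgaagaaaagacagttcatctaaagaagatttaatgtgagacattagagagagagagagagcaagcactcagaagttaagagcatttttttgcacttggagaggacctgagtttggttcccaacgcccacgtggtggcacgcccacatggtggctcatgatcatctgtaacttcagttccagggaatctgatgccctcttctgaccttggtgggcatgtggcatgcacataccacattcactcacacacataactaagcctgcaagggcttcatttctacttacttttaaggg
Psme1: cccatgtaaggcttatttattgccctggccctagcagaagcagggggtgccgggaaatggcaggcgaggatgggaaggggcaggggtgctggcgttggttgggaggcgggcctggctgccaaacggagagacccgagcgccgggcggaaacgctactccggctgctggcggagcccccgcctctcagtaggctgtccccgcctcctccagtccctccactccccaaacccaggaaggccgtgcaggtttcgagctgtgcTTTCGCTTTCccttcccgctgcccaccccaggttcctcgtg
Psmd4: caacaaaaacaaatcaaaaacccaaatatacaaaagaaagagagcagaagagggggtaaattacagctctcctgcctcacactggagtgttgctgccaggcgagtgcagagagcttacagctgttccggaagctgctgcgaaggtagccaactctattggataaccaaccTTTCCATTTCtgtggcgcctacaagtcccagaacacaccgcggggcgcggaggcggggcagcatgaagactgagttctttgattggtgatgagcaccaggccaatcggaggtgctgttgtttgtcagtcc
Psmb5: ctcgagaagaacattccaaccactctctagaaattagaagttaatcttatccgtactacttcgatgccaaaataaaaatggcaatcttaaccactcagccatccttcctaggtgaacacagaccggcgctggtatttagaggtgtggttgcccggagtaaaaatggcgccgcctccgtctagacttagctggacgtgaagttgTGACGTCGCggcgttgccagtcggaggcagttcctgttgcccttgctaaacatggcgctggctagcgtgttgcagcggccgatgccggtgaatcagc
The Psmb8 window held a GAS match 97 bases before the start, and those of Psme1 and Psmd4 held an IRF match 10 bases after and 80 bases before it. The Psmb5 window held an ARE match 47 bases before the start, and the Psmb10 window held none of the 3 motifs. Of the members, 35 had entries, with 38 windows. The IRF motif occurred in 4 of the 38 (10.5%, in Psmb3, Psmd4, Psmd9 and Psme1) and in 3.44% of all 32851 windows in the table. The GAS motif occurred in 2 of the 38 (5.26%, in Psmb8 and Psmd2) and in 8.30% of all windows, and the ARE in 6 of the 38 (15.8%) and in 12.4% of all windows. These matches are descriptions of letters and not of binding.

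In GC B cells, Psmb8, Psmb10 and Psme1 were 2.1-fold, 2.98-fold and 2.08-fold higher in libraries labelled knockout, while the constitutive catalytic genes were not past the threshold. Of 41 members tested, 7 rose and 1 fell at a limma adjusted p under 0.05, against 8.54% of 8522 genes called higher and 5.09% called lower. The members called were 17.1% higher and 2.44% lower, and the median log2 difference was 0.32 over the members and 0.03 over all genes. By class, 2 of 3 immunoproteasome genes, 1 of 7 alpha-ring genes, 1 of 6 ATPases, 2 of 14 non-ATPase genes and 1 of 4 activators rose, 1 non-ATPase gene fell, and 0 of the 7 constitutive beta-ring genes passed. Of the members, 13 were higher without overlap of the groups (31.7%) and 2 lower (4.88%), against 15.6% and 11.7% of 8283 genes. With immunoglobulin genes removed and copies added, the counts were 8 (19.5%) and 3 (7.32%), against 13.8% and 13.2% of genes. In all, 16 of 41 members had an unadjusted limma p under 0.05, against 2407 of 8522 genes.

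Psmb8, the immunoproteasome counterpart of Psmb5, was 1202, 1088, 1054 and 1105 CPM in GC cells labelled knockout, against 544, 563 and 481 CPM in GC cells labelled wild type. The groups were far apart, and no wild-type-labelled library came near the lowest knockout-labelled one. The means were 1112 ± 63.7 CPM (SD, n = 4) and 529 ± 43.0 CPM (SD, n = 3), a log2 difference of 1.07 (SE 0.12, 95% interval 0.81 to 1.34, limma adjusted p = 0.00077). Psmb10, the counterpart of Psmb7, was 98.6, 198.1, 129 and 102 CPM in GC cells labelled knockout, against 50.8, 38.6 and 37.0 CPM in those labelled wild type. The groups did not overlap, and the second knockout-labelled library was well above the other 3. Its log2 difference was 1.58 (SE 0.30, limma adjusted p = 0.0089). Psmb9, the counterpart of Psmb6, differed less, at 162, 191, 138 and 181 CPM in GC cells labelled knockout against 132, 144 and 122 CPM in those labelled wild type. Those groups overlapped, with a log2 difference of 0.33 (limma adjusted p = 0.28).

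The constitutive partners behaved otherwise. Psmb5 was 77.5, 62.4, 23.1 and 88.8 CPM in GC cells labelled knockout, against 114, 114 and 69.7 CPM in those labelled wild type. The groups overlapped and one knockout-labelled library lay far below the rest, and the log2 difference was -0.77 (SE 0.46, limma adjusted p = 0.31). Psmb6 was 490, 473, 460 and 595 CPM in GC cells labelled knockout against 405, 463 and 420 CPM in those labelled wild type (log2 difference 0.23, limma adjusted p = 0.33). Psmb7 was 114, 123, 161 and 112 CPM in GC cells labelled knockout against 106, 97.2 and 107 CPM in those labelled wild type (log2 difference 0.28, limma adjusted p = 0.40). The Psmb7 groups did not overlap but stood close together.

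**Figure D1:**
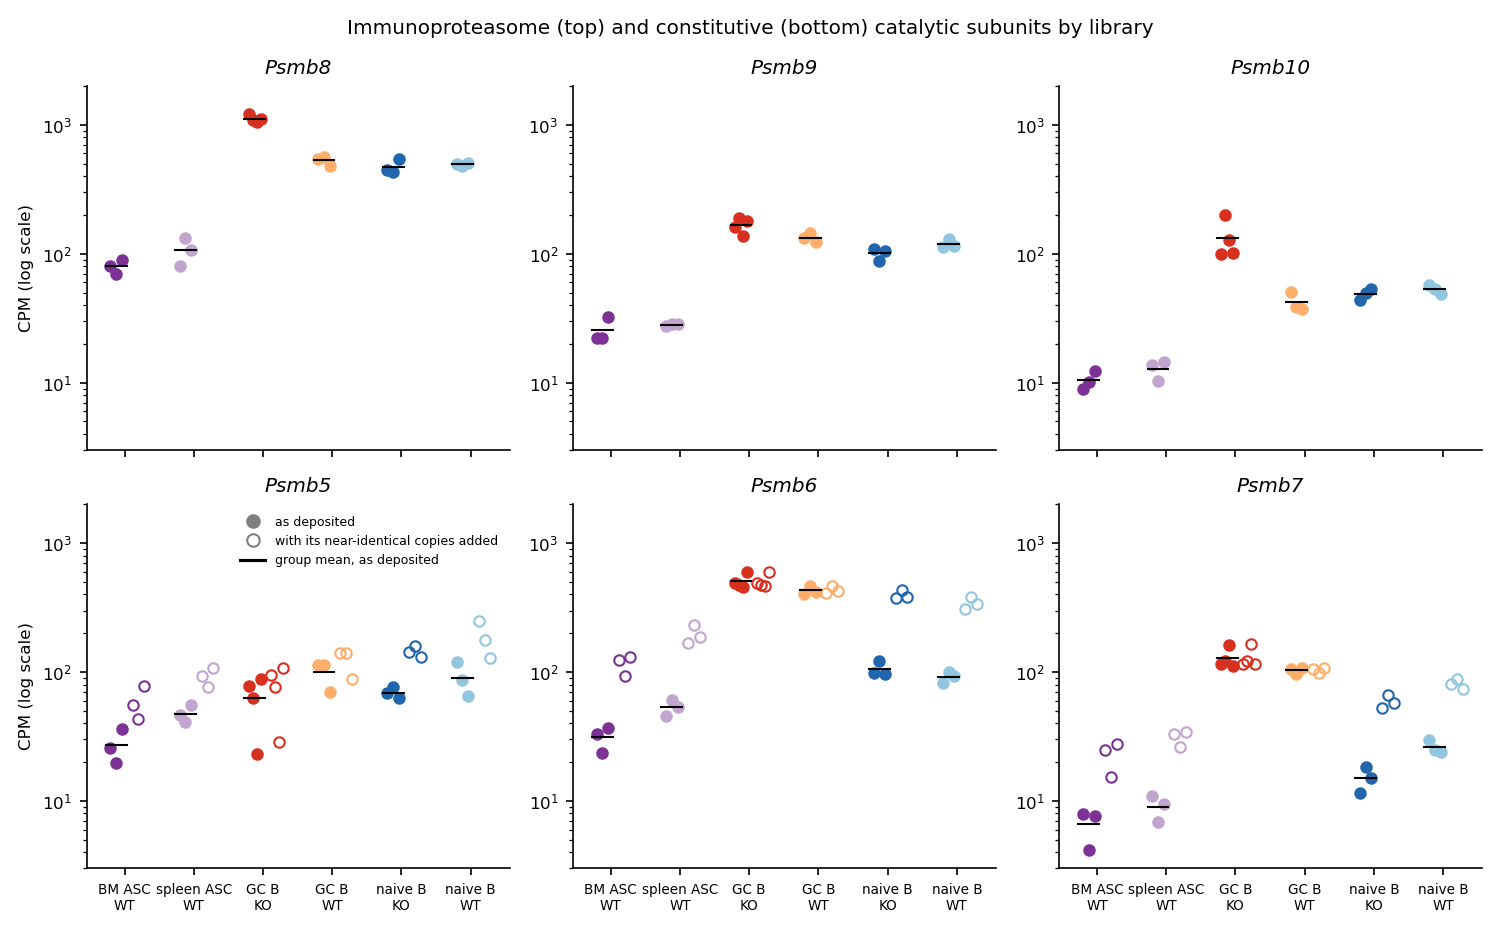
CPM (log axis) of the 3 immunoproteasome genes (top) and the 3 constitutive catalytic genes (bottom) in each library of the 6 groups; filled points are values as deposited, open points have near-identical copies added, and bars are group means of the deposited values. Psmb8 sits between 1054 and 1202 CPM in the 4 GC libraries labelled knockout, above all 3 labelled wild type, and the open points lie well above the filled ones for Psmb5 to Psmb7 in naive cells and ASC but not in GC cells.

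Among the activators, Psme1 stood apart from the rest. Psme1 was 196.5, 189, 162 and 169 CPM in GC cells labelled knockout, against 94.0, 77.7 and 84.4 CPM in those labelled wild type. All 4 knockout-labelled libraries were above all 3 labelled wild type (log2 difference 1.06, SE 0.18, limma adjusted p = 0.0054). Psme2, its partner in the cap, was 126, 113, 107 and 122 CPM in GC cells labelled knockout, against 143, 140.5 and 139 CPM in those labelled wild type. Between 74.2 and 76.5% of the CPM of Psme2 and its copies lay in the copies in GC libraries, so these values hold a minor share of such reads. The order of the groups is the opposite one, without overlap, but the log2 difference of -0.27 missed the threshold (limma adjusted p = 0.35). Psme3 was 37.0, 19.2, 26.6 and 1.52 CPM in GC cells labelled knockout against 30.5, 30.1 and 58.8 CPM in those labelled wild type (log2 difference -1.35, limma adjusted p = 0.37). Psme4 was 54.8, 37.0, 31.8 and 68.4 CPM in GC cells labelled knockout against 90.5, 94.4 and 60.3 CPM in those labelled wild type (log2 difference -0.79, limma adjusted p = 0.17). Both overlapped between the groups.

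In the regulatory particle, Psmd4, a ubiquitin receptor, was 441, 368, 410 and 427 CPM in GC cells labelled knockout against 272, 259.5 and 198.4 CPM in those labelled wild type (log2 difference 0.76, SE 0.16, limma adjusted p = 0.013). Psmd14, the deubiquitinase of the lid, was 326, 266, 299.6 and 378.9 CPM in GC cells labelled knockout against 204, 200 and 162 CPM in those labelled wild type (log2 difference 0.74, limma adjusted p = 0.022). Neither pair of groups overlapped. Psmd1, a scaffold subunit of the base, was the member that fell, at 108, 92.5, 104 and 102 CPM in GC cells labelled knockout against 164, 164 and 181 CPM in those labelled wild type (log2 difference -0.74, SE 0.17, limma adjusted p = 0.022). Psma7 of the alpha ring (0.56) and the ATPase gene Psmc2 (0.54) rose by less, each at a limma adjusted p of 0.042. The remaining 33 members had log2 differences between -1.35 and 0.83 and were not called.

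These calls differed in how far they depended on the processing. Psmb8 passed in all 19 alternative settings, with log2 differences of 0.96 to 1.12. Psmb10, Psme1 and Psmd4 passed in 18 of 19 and were lost when the first knockout-labelled and the third wild-type-labelled library were both left out (limma adjusted p = 0.059, 0.062 and 0.10). Psmd14 and Psmd1 passed in 14 settings, Psma7 in 6 and Psmc2 in 5. With both those libraries left out, 1 member was called, and leaving out wild-type-labelled library 1, 2 or 3 alone gave 5, 4 and 4 calls. In the same comparison with immunoglobulin genes removed 5 rose and 2 fell (Psmd1 and Psmd5), against 7.51% of genes higher and 5.43% lower. The part that the GC, B-cell, T-cell, monocyte and macrophage, erythroid and ASC markers above play in these differences was not tested.

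In naive B cells 0 of 40 members tested were called by limma, against 0 of 8832 genes. Without adjustment, 587 genes had a p under 0.05, and 1 of them was a member. Of the members, 12 were higher and 28 lower in cells labelled knockout, with a median log2 difference of -0.09. Psmb8 was 449, 427 and 543 CPM in naive cells labelled knockout and 494, 479 and 507 CPM in those labelled wild type, and the groups overlapped. Psmb9 was 108, 88.0 and 106 CPM in naive cells labelled knockout and 113, 130 and 114 CPM in those labelled wild type, lower without overlap but not called. Psmb10 was 43.9, 49.7 and 53.7 CPM in naive cells labelled knockout and 57.3, 52.8 and 48.4 CPM in those labelled wild type, with overlap. Among the constitutive genes, Psmb5 was 68.5, 76.1 and 62.4 CPM in naive cells labelled knockout and 120, 87.1 and 64.8 CPM in those labelled wild type, and Psmb6 was 97.7, 121 and 96.8 CPM against 81.6, 101 and 93.4 CPM in the same order. Both overlapped. Psme1 was 47.5, 58.2 and 52.1 CPM in naive cells labelled knockout and 55.0, 59.5 and 53.1 CPM in those labelled wild type, again with overlap, and Psme2 was too low to be tested. Psme3 was 88.0, 85.6 and 54.1 CPM in naive cells labelled knockout and 83.3, 82.0 and 86.9 CPM in those labelled wild type, with overlap. Over all members, 1 was higher and 7 lower without overlap of the groups, against 6% and 7.52% of 8482 genes. Psmb7, the member with the unadjusted p, was 11.6, 18.3 and 15.0 CPM in naive cells labelled knockout against 29.6, 24.7 and 23.8 CPM in those labelled wild type. Its groups did not overlap, and its log2 difference was -0.77 (SE 0.28, limma adjusted p = 0.74). Next by p-value among the members outside the catalytic and activator genes were Psmd4 (log2 difference -0.24), the ATPase gene Psmc4 (-0.29) and the assembly factor Psmd9 (0.49), none past the threshold.

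The genotype difference itself was then compared between GC and naive cells in a single limma fit of both. It was larger in GC cells for 4 of 41 members (9.76%), against 5.02% of 8871 genes, and smaller for 0 members, against 2.82% of genes. The difference of log2 differences was 1.14 for Psmb8 (SE 0.15, limma adjusted p = 0.00055), 1.68 for Psmb10 (SE 0.36, limma adjusted p = 0.012), 1.15 for Psme1 (SE 0.22, limma adjusted p = 0.0069) and 1.00 for Psmd4 (SE 0.18, limma adjusted p = 0.0055). Each of the 4 passed in all 24 alternative settings. Those settings did not include leaving out both the first knockout-labelled and the third wild-type-labelled GC library. That setting had cost Psmb10, Psme1 and Psmd4 their calls within GC cells and was not run here. Psma7 (0.70, limma adjusted p = 0.051) and the beta-ring gene Psmb1 (0.58, limma adjusted p = 0.061) came next, and Psmb9 and the constitutive catalytic genes did not pass.

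**Figure D2:**
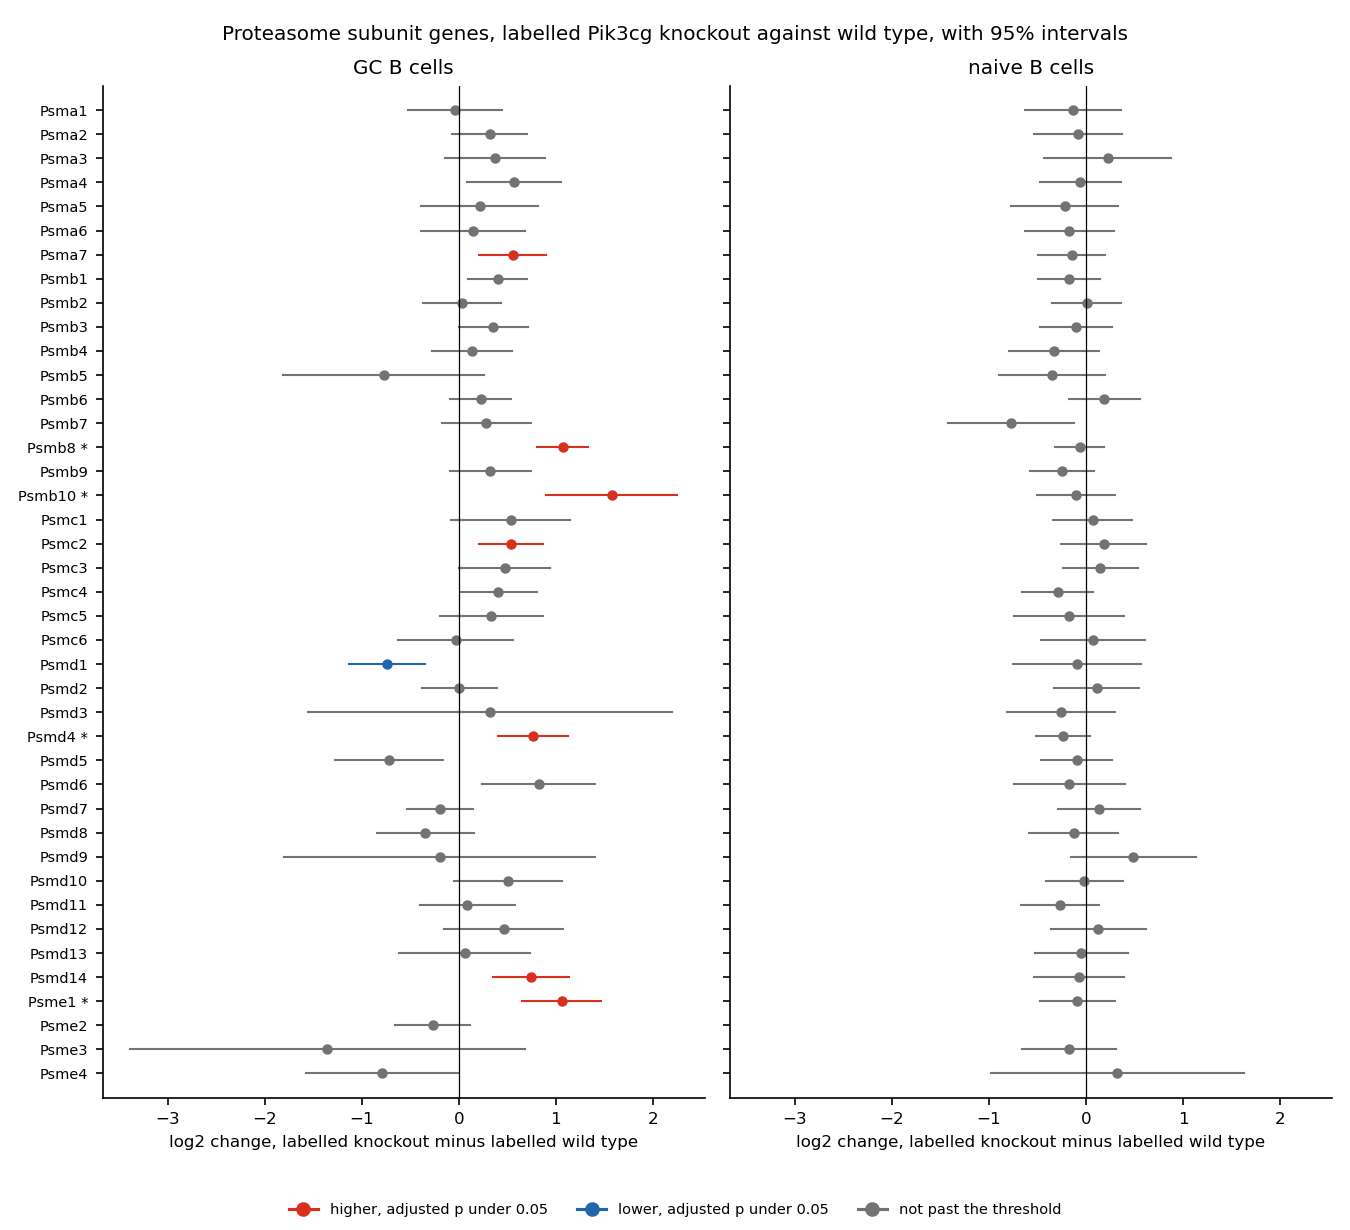
Log2 difference of each member, labelled knockout minus labelled wild type, in GC B cells (left) and naive B cells (right), on the log2(CPM + 1) scale; points are limma estimates, lines are 95% intervals and colours give the limma call. An asterisk marks the 4 genes whose difference was larger in GC than in naive cells, Psmb8, Psmb10, Psmd4 and Psme1; in naive cells all 40 members tested are grey.

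Subtracting a constitutive gene from its immunoproteasome counterpart within a library removes most of the dependence on the library total. The 1 added to each CPM leaves some of it at low levels. Mean Psmb10 minus Psmb7 in bone marrow ASC, with copies added, moved from -1.01 to -1.06 once immunoglobulin genes were removed. With copies added, Psmb8 minus Psmb5 was 3.66, 3.81, 5.16 and 3.35 on the log2 scale in GC cells labelled knockout, against 1.94, 1.99 and 2.42 in those labelled wild type. Psmb10 minus Psmb7 was -0.22, 0.69, -0.35 and -0.17 in GC cells labelled knockout, against -1.05, -1.31 and -1.50 in those labelled wild type. Both differences were higher in every knockout-labelled library than in any wild-type-labelled one. Psmb9 minus Psmb6 was -1.59 ± 0.20 in GC cells labelled knockout (SD, n = 4) and -1.70 ± 0.09 in those labelled wild type (SD, n = 3), and the groups overlapped. Averaged over the 3 pairs, the value was 0.80 ± 0.29 in GC cells labelled knockout and -0.29 ± 0.05 in those labelled wild type, a gap of 1.09. Within naive cells, Psmb10 minus Psmb7 was -0.27, -0.41 and -0.09 in those labelled knockout and -0.48, -0.73 and -0.61 in those labelled wild type, also without overlap and by a smaller gap of 0.35. Psmb9 minus Psmb6 lay the other way in naive cells, at -1.79, -2.29 and -1.83 in those labelled knockout and -1.43, -1.55 and -1.56 in those labelled wild type. The average over the 3 pairs was -0.17 ± 0.24 in naive cells labelled knockout and -0.22 ± 0.13 in those labelled wild type (SD, n = 3 each), which overlapped.

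**Figure D3:**
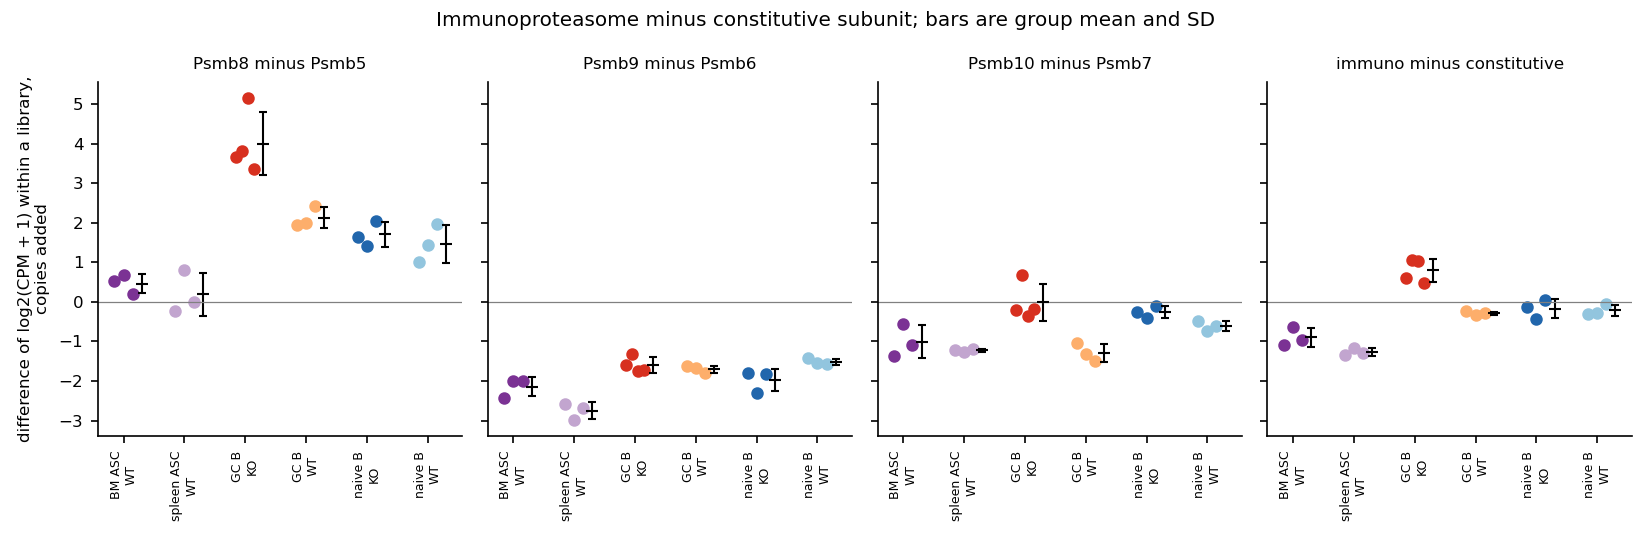
Immunoproteasome minus constitutive gene within each library, as differences of log2(CPM + 1) with copies added, for the 3 counterpart pairs and for their average (right); points are libraries, bars are group mean and SD. In the right panel the 4 GC libraries labelled knockout lie between 0.49 and 1.06, above all other libraries, and the ASC libraries lie lowest, between -1.34 and -0.63.

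Expressed per kilobase of the main transcript, Psmb8, Psmb9 and Psmb10 made up 52.3 ± 3.04% of the 6 catalytic genes in GC cells labelled knockout (SD, n = 4) and 37.2 ± 1.00% in those labelled wild type (SD, n = 3), with copies added. The share was 36.3 ± 4.21% in naive cells labelled knockout and 38.0 ± 2.27% in naive cells labelled wild type. It was 25.0 ± 2.15% in bone marrow ASC and 20.3 ± 1.46% in spleen ASC. On this scale Psmb8 averaged 683 CPM per kilobase in GC cells labelled knockout and 325 in those labelled wild type, next to 635 and 543 for Psmb6, 85.3 and 137 for Psmb5, 124.2 and 98.3 for Psmb9, 101 and 32.2 for Psmb10 and 111 and 89.3 for Psmb7. In order of the share from the top, GC cells labelled knockout came first without overlap, the next 3 groups overlapped each other, and bone marrow ASC and spleen ASC followed, each without overlap. The order between tables rested on the copies: as deposited the shares were 50.7% in bone marrow ASC, 42.8% in spleen ASC, 52.9% and 38.2% in GC cells labelled knockout and wild type, and 64.4% and 64.5% in naive cells labelled knockout and wild type. The order of the 2 ASC groups below naive cells and of the 2 GC groups was the same either way.

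In ASC the reading depended on the immunoglobulin share. As deposited, 38 of 38 members tested were lower in bone marrow ASC than in naive cells labelled wild type (limma), against 88.4% of 6838 genes lower and 4.64% higher. In spleen ASC 37 of 38 were lower, against 82.5% of genes lower and 6.2% higher, and the lid gene Psmd8 was the exception (log2 difference -0.46, limma adjusted p = 0.16). The median log2 difference of all genes was -2.32 in bone marrow ASC and -1.95 in spleen ASC, and that of the members was -2.01 and -1.51. Removing immunoglobulin genes and Jchain moved the median of all genes to -0.01 in bone marrow ASC and -0.09 in spleen ASC. The ASC comparisons share their naive libraries, and each is given on its own.

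With immunoglobulin genes removed, 10 of 40 members were higher and 2 lower in bone marrow ASC (25% and 5%), against 16% of 9175 genes higher and 12.9% lower. The 7 neutrophil markers summed to 53.8 to 267 CPM in bone marrow ASC, 0.061 to 25.5 CPM in spleen ASC and 0.459 to 161 CPM in naive cells labelled wild type as deposited, and with immunoglobulin genes removed 5 of 6 tested were higher in bone marrow ASC than in naive cells. Elane and Mpo were at 0 in all spleen ASC and naive libraries labelled wild type, and the part of these markers in the bone marrow values was not tested. In spleen ASC 9 of 40 were higher and 1 lower (22.5% and 2.5%), against 15.5% of genes higher and 13.5% lower. As deposited, the 3 largest falls outside the catalytic and activator genes were those of Psmd4 (-2.57), the lid gene Psmd11 (-2.50) and the assembly chaperone gene Psmd10 (-2.48) in bone marrow ASC, and of the assembly chaperone gene Psmd5 (-2.39), Psmd10 (-2.33) and Psmd4 (-2.24) in spleen ASC. After removal none of those 4 genes passed in either site. The members' median log2 difference was 0.30 in bone marrow ASC and 0.32 in spleen ASC. Psmb8, Psmb9 and Psmb10 were among the members that did not pass in either site. Leaving out 1 library at a time gave 4 to 12 members in bone marrow ASC and 5 to 13 in spleen ASC, so the counts move with single libraries. The lowest were 4 and 5 calls without the third naive library labelled wild type, and leaving out the first or second naive library gave 6 and 7 in bone marrow ASC. In bone marrow ASC, the first bone marrow library left out gave 5, and in spleen ASC the third spleen library left out gave 6.

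Psmb6, with immunoglobulin genes removed, was 193, 142 and 168 CPM in bone marrow ASC, 170, 260 and 193 CPM in spleen ASC and 85.3, 105 and 97.4 CPM in naive cells labelled wild type. ASC libraries of both sites were above all naive libraries. The log2 difference was 0.79 in bone marrow ASC (SE 0.21, limma adjusted p = 0.017) and 1.09 in spleen ASC (SE 0.21, limma adjusted p = 0.0031). Psmb5 was 148, 120 and 164 CPM in bone marrow ASC, 172, 175 and 202 CPM in spleen ASC and 125, 90.8 and 67.6 CPM in naive cells labelled wild type. Spleen ASC were above the naive range, while bone marrow ASC overlapped it. Psmb5 rose in spleen ASC (log2 difference 0.98, SE 0.24, limma adjusted p = 0.011) and was 0.64 in bone marrow ASC (limma adjusted p = 0.074). Psmb7 was 45.8, 25.3 and 34.9 CPM in bone marrow ASC, 40.1, 29.6 and 34.0 CPM in spleen ASC and 30.9, 25.8 and 24.8 CPM in naive cells labelled wild type, with overlap and a log2 difference of 0.33 in each site.

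The immunoproteasome genes stayed closer to the naive level on this scale. Psmb8 was 461, 423 and 409 CPM in bone marrow ASC, 295.8, 573 and 389 CPM in spleen ASC and 516, 500 and 529 CPM in naive cells labelled wild type. Bone marrow ASC were below the naive range and spleen ASC spread across it, with log2 differences of -0.26 (limma adjusted p = 0.41) and -0.35 (limma adjusted p = 0.26). Psmb9 was 129, 135 and 146 CPM in bone marrow ASC, 102, 122 and 104 CPM in spleen ASC and 118, 136 and 119 CPM in naive cells labelled wild type. Psmb10 was 51.8, 61.3 and 56.4 CPM in bone marrow ASC, 50.4, 43.9 and 52.5 CPM in spleen ASC and 59.8, 55.0 and 50.5 CPM in naive cells labelled wild type. Both overlapped the naive range in each site. Within libraries and with copies added, the average of immunoproteasome minus constitutive genes was -0.90 ± 0.24 in bone marrow ASC, -1.26 ± 0.10 in spleen ASC and -0.22 ± 0.13 in naive cells labelled wild type (SD, n = 3 each). Neither ASC group overlapped the naive group, with gaps of -0.68 in bone marrow and -1.04 in spleen. By pair, spleen ASC lay below naive cells without overlap for Psmb8 minus Psmb5 (-1.28), Psmb9 minus Psmb6 (-1.23) and Psmb10 minus Psmb7 (-0.62). Bone marrow ASC did so for Psmb8 minus Psmb5 (-1.003) and Psmb9 minus Psmb6 (-0.63), while Psmb10 minus Psmb7 (-0.41) overlapped. With Psmb1 to Psmb4, the beta subunits without a catalytic site, in place of Psmb5 to Psmb7, the deposited gaps were -0.28 in bone marrow ASC and -0.64 in spleen ASC. The 3-against-3 design allows no exact permutation p under 0.10, so these within-library gaps are given without a p-value.

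Other members that rose in ASC belong to several classes. In spleen ASC, Psmd8 was 360, 211.8 and 337 CPM, against 102, 145 and 89.7 CPM in naive cells labelled wild type, and in bone marrow ASC it was 218, 191 and 185 CPM. All 6 ASC libraries were above the naive range (log2 difference 0.84 in bone marrow, limma adjusted p = 0.028, and 1.42 in spleen, limma adjusted p = 0.0018). In bone marrow ASC the lid genes Psmd12 (1.04), Psmd6 (0.89) and Psmd7 (0.77), the ATPase genes Psmc1 (0.87) and Psmc3 (0.86), the alpha-ring gene Psma7 (0.80) and the beta-ring gene Psmb2 (0.57) also rose. In spleen ASC the alpha-ring genes Psma4 (0.87) and Psma7 (0.66), the ATPase gene Psmc3 (0.85), Psmb2 (0.84), the base scaffold gene Psmd2 (0.72) and Psmd6 (0.65) also rose. With each library left out in turn, Psmb2, Psmb5, Psmb6 and Psmd8 passed in 9 of 9 fits in spleen ASC, and Psma7 and Psmd6 in 9 of 9 in bone marrow ASC. In spleen ASC, Psma4 passed in 8, Psmc3 in 7, Psma7 in 5, Psmd2 in 4 and Psmd6 in 3 of 9. In bone marrow ASC, Psmc3 passed in 8, Psmb6 and Psmd7 in 7, Psmd8 and Psmd12 in 5, Psmc1 in 4 and Psmb2 in 3 of 9.

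The activators moved in different directions in ASC. Psme1 was 19.8, 33.1 and 29.0 CPM in bone marrow ASC, 28.4, 27.9 and 38.4 CPM in spleen ASC and 57.5, 62.0 and 55.4 CPM in naive cells labelled wild type. ASC libraries of both sites were below all naive libraries (log2 difference -1.10 in bone marrow, SE 0.28, limma adjusted p = 0.015, and -0.88 in spleen, SE 0.28, limma adjusted p = 0.042). With single libraries left out, Psme1 passed in 8 of 9 fits in bone marrow ASC (lost without the second naive library) and in 4 of 9 in spleen ASC. Psme3 was 12.6, 19.8 and 68.5 CPM in bone marrow ASC, 91.8, 105 and 43.0 CPM in spleen ASC and 87.0, 85.5 and 90.6 CPM in naive cells labelled wild type. The third bone marrow library stood near the naive level and the other 2 far below it, and the fall in bone marrow (log2 difference -1.72, limma adjusted p = 0.039) passed in 2 of 9 fits with a library left out. Psme4 was 39.1, 31.1 and 26.1 CPM in bone marrow ASC, 18.2, 45.9 and 22.7 CPM in spleen ASC and 4.88, 17.7 and 7.80 CPM in naive cells labelled wild type. The bone marrow rise (log2 difference 1.73, limma adjusted p = 0.028) passed in 5 of 9 such fits. Psme2 was too low to be tested in naive cells and ASC, because 99.2 to 99.7% of its CPM in bone marrow ASC, 98.6 to 99.5% in spleen ASC and 99.1 to 99.4% in naive cells labelled wild type lay in its copies, chiefly Psme2b. With copies added and immunoglobulin genes removed, Psme2 averaged 538 ± 74.8 CPM in bone marrow ASC, 601.03 ± 103 CPM in spleen ASC and 552 ± 16.7 CPM in naive cells labelled wild type (SD, n = 3 each), with overlapping ranges.

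**Figure D4:**
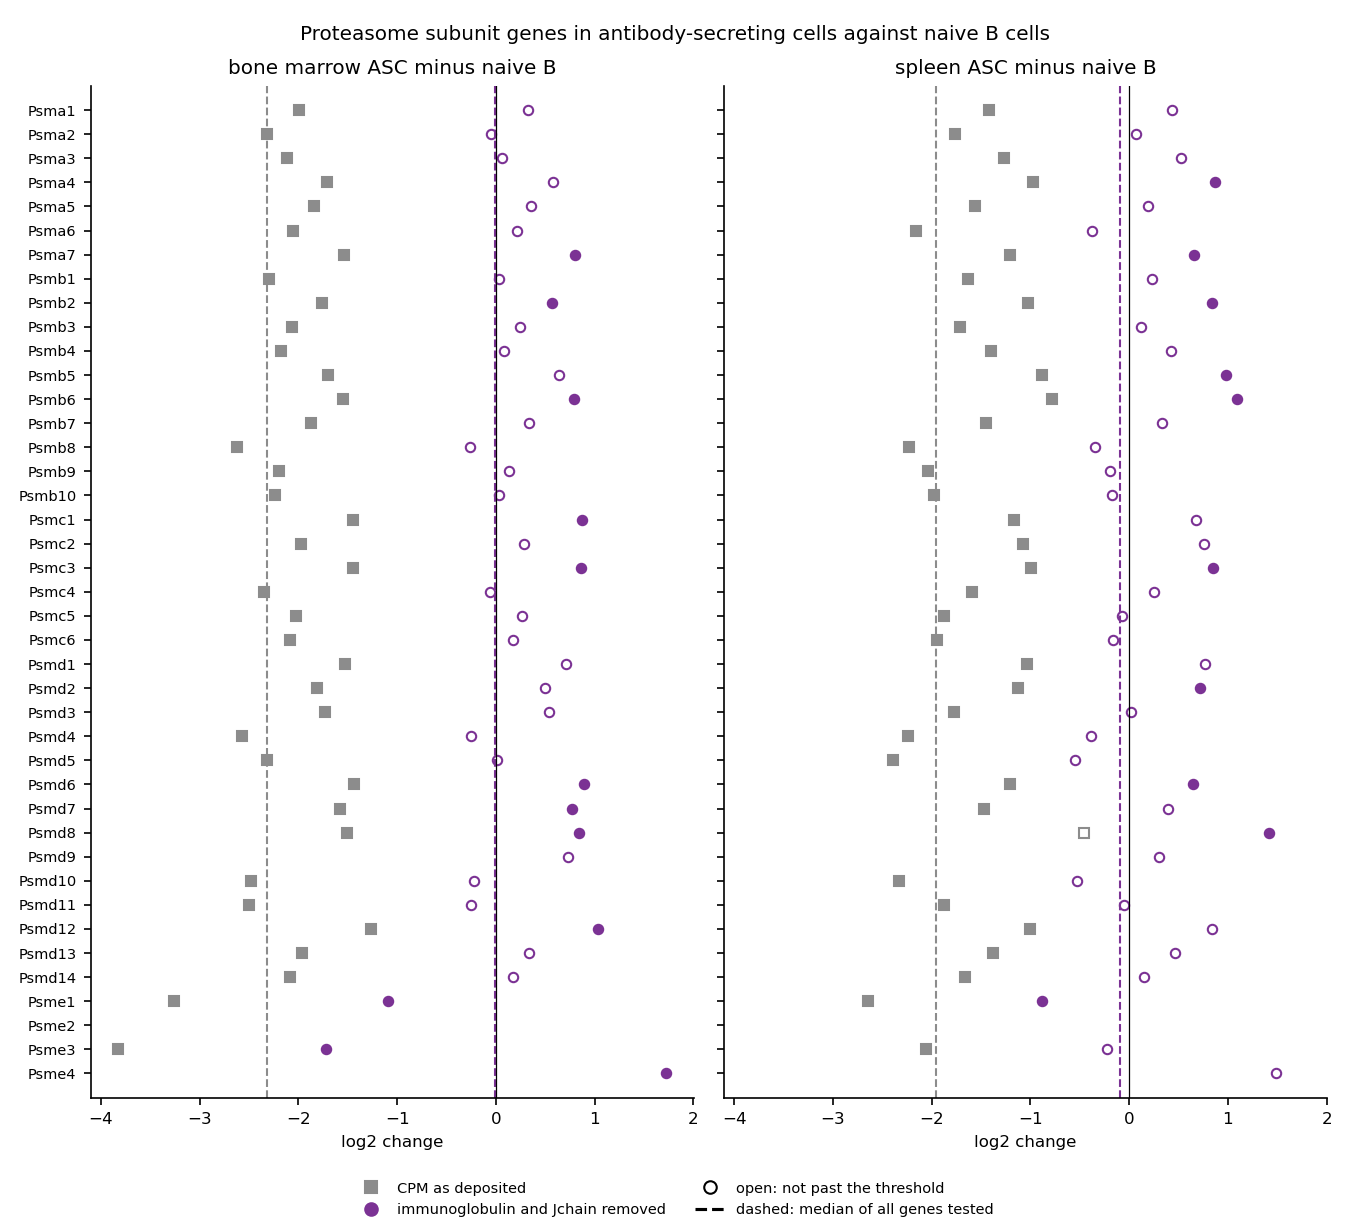
Log2 difference of each member in bone marrow ASC (left) and spleen ASC (right) minus naive B cells labelled wild type; grey squares are CPM as deposited, purple circles are after removal of immunoglobulin genes and Jchain, filled symbols passed a limma adjusted p of 0.05, and dashed lines are medians of all genes tested. The grey points follow a median near -2, and after removal 10 members are higher and 2 lower in bone marrow ASC, and 9 higher and 1 lower in spleen ASC.

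Between bone marrow and spleen ASC, limma called 0 of 38 members, against 0.0439% of 6838 genes higher and 4.2% lower in bone marrow. An unadjusted limma p under 0.05 was found for 11 of 38 members, against 1558 of 6838 genes. With immunoglobulin genes removed 0 of 40 members were called, against 0.0763% of genes higher and 0.229% lower. The smallest p-values outside the catalytic and activator genes were those of Psmd8 (log2 difference -1.05, limma adjusted p = 0.068), Psmc2 (-0.90, limma adjusted p = 0.095) and the beta-ring gene Psmb1 (-0.67, limma adjusted p = 0.095). Leaving out the third bone marrow library gave 9 lower members, against 892 of 7005 genes lower. Leaving out the second spleen library gave 1, against 346 of 7032 genes lower. With immunoglobulin genes removed no library left out gave any called member. The average of immunoproteasome minus constitutive genes within a library, with copies added, was -1.10, -0.63 and -0.97 in bone marrow ASC and -1.34, -1.15 and -1.29 in spleen ASC. Those values did not overlap.

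Summed over the 41 members, deposited CPM ranged from 560 to 894 in bone marrow ASC, 943 to 1072 in spleen ASC, 9540 to 10173 in GC cells labelled knockout, 7350 to 8212 in GC cells labelled wild type, 2695 to 2876 in naive cells labelled knockout and 2862 to 3012 in naive cells labelled wild type. With immunoglobulin genes removed and copies added the sums were 7262 to 8230 CPM in bone marrow ASC and 7392 to 8722 CPM in spleen ASC. They were 11206 to 12165 CPM in GC cells labelled knockout, 9565 to 10607 CPM in GC cells labelled wild type, 5800 to 6151 CPM in naive cells labelled knockout and 6061 to 6221 CPM in naive cells labelled wild type. On that scale naive cells had the lowest sums, the 2 ASC groups overlapped and GC cells had the highest. Psmb8 to Psmb10 summed to 1425 to 1580 CPM in GC cells labelled knockout against 742 to 863 CPM in those labelled wild type, while Psmb5 to Psmb7 summed to 706 to 895 CPM against 704 to 814 CPM.

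**Figure D5:**
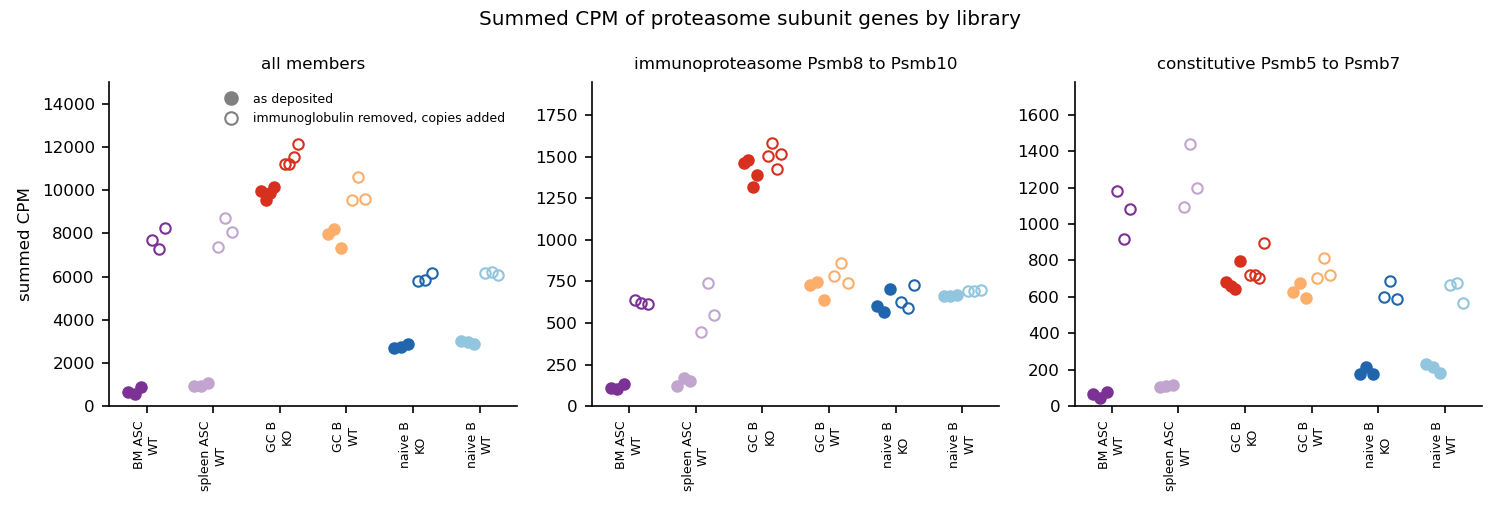
Summed CPM per library of all 41 members (left), Psmb8 to Psmb10 (middle) and Psmb5 to Psmb7 (right) in the 6 groups; filled points are as deposited and open points have immunoglobulin genes removed and copies added, and each axis starts at 0. In the left and right panels the open points put ASC above naive cells, and the 4 GC libraries labelled knockout are highest in the left and middle panels.

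Set beside naive cells of the same label, as a description across separately made tables, 29 of 41 members (70.7%) were higher without overlap in GC cells labelled knockout, against 26.2% of 8717 genes. The same number, 29 of 41, was higher without overlap in GC cells labelled wild type, against 33.2% of 8828 genes, both with immunoglobulin genes removed and copies added. The members' median log2 difference was 1.16 for the knockout label and 0.95 for the wild-type label, against 0.14 and 0.15 over all genes. For the 22 members without a copy it was 1.98 and 1.60. Those gaps are larger than the spread between replicates, but the tables differ in the share of reads held by copies, and the part of that difference was not tested.

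Genes that act with the proteasome did not move as a block in GC cells. Of the 16 regulators tested in the interferon gamma and IRF list, 1 rose and 1 fell in GC cells labelled knockout, against 8.54% of all genes higher and 5.09% lower, and the list median was 0.73 against 0.03 over all genes. The one that fell was Irf4. Irf4, a factor needed for plasma cell formation, was 26.7 ± 14.7 CPM in GC cells labelled knockout (SD, n = 4) and 144 ± 32.0 CPM in those labelled wild type (SD, n = 3; log2 difference -2.51, limma adjusted p = 0.0057). In the class I presentation list 0 of 15 rose and 3 fell, namely B2m, the light chain of class I molecules (-0.99), the chaperone gene Calr (-1.17) and Tapbp, which encodes tapasin (-1.38), with a list median of -0.43. With immunoglobulin genes removed, 5 of the 15 fell. In the assembly and accessory list 0 of 17, and in the list around Nrf1, which drives proteasome genes when proteasome activity is short, 0 of 9 were called, and in the ubiquitin list Isg15, an interferon-induced ubiquitin-like gene, rose (2.48, limma adjusted p = 0.028) as 1 of 8. Between GC and naive cells the genotype difference was larger in GC cells for Isg15 (2.31) and smaller for Irf4 (-2.85), B2m (-0.80) and Tapbp (-1.20). In the interferon list it was larger for 1 and smaller for 1 of 16, with a list median of 0.60. In naive cells 0 genes of these lists were called by limma, as of all genes.

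In ASC, with immunoglobulin genes removed, the Nrf1 list had 6 of 9 genes higher and 1 lower in bone marrow and 4 higher and 1 lower in spleen, with medians of 1.30 and 1.39 against -0.01 and -0.09 over all genes. Of all genes, 16% were higher and 12.9% lower in bone marrow ASC, and 15.5% and 13.5% in spleen ASC, which is the background for each list here. Sel1l, of the endoplasmic-reticulum degradation complex, had log2 differences of 4.33 in bone marrow ASC and 3.99 in spleen ASC. Ddi2, the protease that cleaves Nrf1, had 1.60 and 1.90, the unfoldase gene Vcp 1.70 and 1.52, and Ngly1, which removes sugar chains, 1.30 and 1.41 in that order. Nfe2l2, which encodes Nrf2, was the lower one (-1.23 in bone marrow ASC and -1.05 in spleen ASC). The assembly and accessory list had 0 of 19 called in either site. In the class I list 6 of 14 rose and 2 fell in bone marrow ASC and 6 rose in spleen ASC, and in the interferon list 1 of 16 rose and 5 fell in each site, Irf4 being the one that rose (3.00 in bone marrow ASC and 3.33 in spleen ASC), and Irf8 (-2.51 and -2.96) and the interferon gamma receptor gene Ifngr1 (-2.21 and -2.76) being among those that fell. The ubiquitin list had 2 of 8 higher and 3 lower in bone marrow ASC and 3 higher and 2 lower in spleen ASC, the polyubiquitin gene Ubb (0.92 and 1.17) being among the higher ones.

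Counting itself limits some of these genes. Psmb8 and Psmb10 each overlap an antisense gene, Gm20496 over 2139 bases and Gm16156 over 2710 bases. Psmb9 overlaps Tap1, which lies on the opposite strand. The sources used here do not give whether counting used strand, so reads of those pairs cannot be told apart.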

How the data were processed

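Libraries were sequenced from RNA of sorted cells, and the authors deposited 4 tables of CPM (reads scaled to the library total) per gene, with STAR and mm10 named per the submitters' processing notes; the sources used here do not give the counting or strand setting. An offset of 0.0001 in the GC table was subtracted, and 19 date-named entries in each of the other 3 tables were dropped. Because only 61.4 to 88.8% of values came out as whole multiples of 1 read (tolerance 0.02 reads), no count test was run. The log2(CPM + 1) values of genes averaging at least 10 CPM were fitted with limma 3.58.1 in R 4.3.3 (trended empirical Bayes, Benjamini-Hochberg adjustment over all genes, threshold 0.05); Python 3.11.15, pandas 2.3.3 and NumPy 2.4.6 made the tables. GC and naive cells were fitted separately for genotype and together for the difference of differences, and the 2 ASC groups with naive cells labelled wild type. The fits were tested on simulated data. Near-identical copies were sought only among pseudogene transcripts of GENCODE M21 and the gene Psme2b, with at least 80% identity over at least 200 aligned bases. Copies among other protein-coding genes were not searched for. Levels per kilobase used the principal transcript.

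Samples were grouped by the labels. Members, gene lists, markers and tests were chosen with earlier results of these data known. The catalytic and activator genes are given in full, with, per comparison, the 3 called members of largest change in each direction (filled up by smallest p where fewer were called) and up to 4 called genes of largest change per list; other members named are there because they were called. Alternatives were other pseudocounts, filters, scalings, robust estimation, library weights, a replicate block and leaving out libraries. Some genes of the lists are not reported here.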

Additional observations from a re-analysis of the deposited data

Results flagged for a closer look

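The genotype difference, labelled knockout minus labelled wild type, was larger in GC B cells than in naive B cells for 4 proteasome genes in the limma fit of both cell types. The difference of log2 differences was 1.68 for Psmb10, 1.14 for Psmb8, 1.15 for Psme1 and 1.00 for Psmd4. Each was higher in all 4 knockout-labelled GC libraries than in the 3 labelled wild type, and none was higher without overlap in the naive libraries labelled knockout. The GC marker and T-cell marker sums given above moved with the same libraries, and their part in the result was not tested.

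Psma7, an alpha-ring gene, was 408 CPM in the first knockout-labelled GC library, far below the 541 to 565 CPM of the other 3. Of the 46 groups of 4 libraries examined it was the only one with a gap this wide relative to its range, and chance gives about 1 in 20.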

How the results depend on the processing

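The members called in GC cells (8) became 4 with the replicate block, 4 to 6 with 1 library left out and 1 without both the first knockout-labelled and the third wild-type-labelled library. In place of the 37 members called in spleen ASC and 38 in bone marrow ASC as deposited, spleen ASC had 13 with median-ratio scaling, 14 with quantile normalization, 10 with immunoglobulin removed and 11 with copies added too, and bone marrow ASC had 11, 10, 12 and 15; these settings change the library total, and calls then run in both directions. With immunoglobulin removed, leaving out 1 library gave 5 to 13 members in spleen ASC and 4 to 12 in bone marrow ASC. Between the sites, library weights gave 1 and leaving out 1 library 0 to 9. For those counts of single libraries the cause was not tested.

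Under the same 4 settings, in that order, the spleen log2 differences turned positive, for Psmb5 to 1.04, 0.84, 0.98 and 0.93, for Psmb6 to 1.14, 0.92, 1.09 and 1.07 and for Psmb7 to 0.38, 0.44, 0.33 and 0.50. In bone marrow they were 0.62, 0.48, 0.64 and 0.74 for Psmb5, 0.78, 0.62, 0.79 and 0.80 for Psmb6 and 0.31, 0.37, 0.33 and 0.49 for Psmb7. In all but quantile normalization, Psmb9 turned to 0.13 and Psmb10 to 0.031, 0.035 and 0.035 in bone marrow. With Psmb1 to Psmb4 as the constitutive set, the immunoproteasome minus constitutive difference moved to 0.76 for GC genotype, -0.64 for spleen ASC and -0.28 for bone marrow ASC.

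To look for pairing, each library's deviations from its group means were correlated over genes with those of libraries of other groups. For libraries of the same number these deviations correlated at 0.000565 to 0.0787 in GC cells, -0.0471 to 0.0379 in naive cells and -0.00742 to 0.144 in the ASC fit. Bone marrow and spleen ASC of the same number reached 0.0535, 0.144 and 0.125 (other numbers in that fit -0.143 to 0.0465). Each was above every bone marrow and spleen pair of other numbers (-0.143 to 0.0271). The numbers were not taken to pair samples because not every pair passed 0.1. That cut-off cannot exclude pairing of the 2 sites, and the main fit between them is unpaired. The block gave 0 members in naive cells, 37 in spleen ASC, 38 in bone marrow ASC, 0 between sites and 4 for the difference of genotype differences, and, with immunoglobulin removed, 9 in spleen and 10 in bone marrow ASC. Of the recomputed counts and group differences, 181 stayed within 1.5 times the count or within the spread between replicates and 25 did not. Of the recomputed single-gene values, 1331 kept direction and call, 70 lost the call, 9 gained it and 30 changed sign. The 10 CPM filter left some members untested in naive cells and ASC, and with a minimum of 1 CPM all 41 were tested.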
